A study of Rattus norvegicus with 24 samples.

Results

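Genes that carry, store or move iron, heme and other metal ions were examined in the retina of rats with streptozotocin (STZ) diabetes. Members were chosen by name, as all array elements whose RefSeq accession mapped to 1 of 10 gene symbols, Cp, Tf, Hp, Hpx, Fth1, Ftl1, Tfrc, Mt3, Slc11a2 and Slc40a1. Of these, 7 genes had 9 named probes among the 4012 genes with a symbol, and Tf, Ftl1 and Tfrc were not analysed here. Of the 9 probes, 7 (6 genes) were bright enough to be tested, and the probe of Slc40a1 and 1 of the 3 probes of Slc11a2 were not.

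The arrays came from male Sprague Dawley rats injected once with STZ, a toxin of the pancreatic beta cells that make insulin, or with its citrate vehicle, and killed 1 or 3 months (1M or 3M) later. There were 6 arrays in each group, named 1M control, 1M STZ, 3M control and 3M STZ, and no rat received insulin. For the microarray set the paper lists fewer rats than arrays in the 1M control group. A figure legend of the paper also gives fewer animals than arrays per group. Whether every array came from a different rat is not given in the sources used here. Diabetic rats were kept in the study only if their blood glucose was high, and their age is not given in the sources used here. RNA was taken from whole retina, so fewer cells of a type and less RNA per cell cannot be told apart, and p-values measure the spread between these arrays.

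Iron is needed by photoreceptors and other retinal cells but is toxic when free, and it is held by a set of binding proteins. Ceruloplasmin (Cp), a copper enzyme, oxidizes iron so that it can leave cells through ferroportin (Slc40a1). Haptoglobin (Hp) and hemopexin (Hpx) bind free hemoglobin and free heme. Ferritin heavy chain (Fth1) stores iron, the divalent metal transporter (Slc11a2) takes it up, and metallothionein 3 (Mt3) binds zinc and copper, mainly in the nervous system. Cp, Hp and Hpx are also acute phase genes of the liver.

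Promoter sequences were at hand for 7 of the 10 genes, and those of Cp and Hpx are shown because these were the 2 members whose 3M STZ arrays all lay above the 3M control arrays. Each is the 250 bases before the RefSeq start on build GRCr8, 5′ to 3′ on the gene's strand, with matches to the C/EBP letters TTGCNNAA on either strand in capitals. The window of Cp is chr2:104368420-104368669 on the plus strand, and that of Hpx is chr1:169352156-169352405 on the minus strand.
Cp: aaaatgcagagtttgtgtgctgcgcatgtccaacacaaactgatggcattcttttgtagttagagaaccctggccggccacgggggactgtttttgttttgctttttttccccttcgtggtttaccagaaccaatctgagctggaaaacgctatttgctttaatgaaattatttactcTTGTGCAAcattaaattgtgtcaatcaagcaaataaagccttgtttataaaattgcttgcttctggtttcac
Hpx: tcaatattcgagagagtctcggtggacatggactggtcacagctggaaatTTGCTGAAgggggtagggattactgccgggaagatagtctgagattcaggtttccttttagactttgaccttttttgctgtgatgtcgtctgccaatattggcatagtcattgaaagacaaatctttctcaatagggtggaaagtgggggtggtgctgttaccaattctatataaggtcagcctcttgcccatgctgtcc
C/EBP factors bind acute phase promoters in liver, and these letters occurred in 9.2% of all 33469 rat promoter windows of this length. The match lay 72 to 65 bases before the start of Cp and 200 to 193 bases before that of Hpx, and the window of Tf held 1 as well. Neither window held the STAT letters TTCNNNGAA or the letters CTGGGAA, on either strand, which occurred in 7.7% and 9.6% of windows. The window of Mt3 held 3 matches to the metal response letters TGCACNC or TGCGCNC, found in 10.3% and 11.8% of windows, and so did that of Tfrc, while that of Tf held 2. The antioxidant response letters TGACNNNGC, found in 10.1% of windows, occurred in Hpx, the letters CTGGGAA in 1 of the 2 windows of Slc11a2, and the hypoxia response letters ACGTG, found in 16.6%, in Tfrc. Such matches are descriptions of the sequence.

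Levels are given as scaled intensity, the background-subtracted brightness of a probe divided by the median of its array, and differences as log2 fold change (STZ minus control). Calls required at least a 1.2-fold difference and a limma p, adjusted over all tested probes by Benjamini-Hochberg, under 0.05. Under median scaling the 3M comparison as a whole was one-sided, with 50.5% of the 22025 tested probes called higher and 3.55% called lower, and the log2 fold change over all tested probes had a median of 0.44. After quantile normalization, which gives all arrays the same distribution, 24.6% were higher and 6.99% lower, and the median was 0.16. With arrays scaled to the median of the tested probes, 2827 were called higher and 2733 lower, and the median was 0.07. Among the members under median scaling, 4 of the 7 tested probes were called higher at 3M (Cp, Hp, Hpx and 1 probe of Slc11a2) and none lower, a share close to that of all probes. At 1M no member was called or had an unadjusted p under 0.05 in limma, and none passed the methods' test, beside 0.00908% of all probes higher and 0% lower.

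The arrays differed in brightness. The median intensity before scaling was 149 to 308 on the 3M control arrays and 125 to 164 on the 3M STZ arrays. The dimmest 3M control array, replicate 6, had the highest level of the 6 controls for 6 of the 7 member probes, as it did for 63.8% of all tested probes. Either of the 2 brightest, replicates 2 and 3, had the lowest level for 7 of 7 member probes and for 78.6% of all. Replicate 2 also stood apart, its correlation with the other 3M controls having a median of 0.842. The spread of log2 values within an array (interquartile range) also differed, at 1.48 to 2.23 on the 3M control arrays, 2.07 to 2.70 on the 3M STZ arrays and 3.36 to 3.67 on the 1M arrays, and its part in the 3M differences and in the comparison of 3M with 1M was not tested. The part of brightness in the differences below was measured only with brightness as a covariate.

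Cp had the largest 3M difference of the members under median scaling, and Hp was larger after quantile normalization (1.22 against 1.06). Its scaled intensity was 2.91, 3.93 and 5.46 (lowest, median and highest) on the 3M control arrays and 8.29, 12.2 and 18.8 on the 3M STZ arrays. The groups did not overlap, which held upward for 9.49% of all tested probes and downward for 0.681%. Cp rose 3.09-fold, a log2 fold change of 1.63 (SE 0.23, limma adjusted p = 4.5e-05, 6 of 6 STZ arrays above every control). Of all tested probes, 99.6% had a smaller log2 fold change, and Cp stood 1.18 above the median of all probes. The log2 fold change was 1.06 after quantile normalization (adjusted p = 0.00021) and 1.69 with brightness as a covariate (adjusted p = 0.0015).

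At 1M the levels of Cp were 4.23, 7.01 and 9.22 on the control arrays and 3.92, 5.76 and 9.77 on the STZ arrays. These ranges overlapped, and the log2 fold change was -0.21 (SE 0.23, limma adjusted p = 1.0). The difference between the 3M and 1M effects was 1.84 (SE 0.33, adjusted p = 0.0077). With all arrays and median scaling Cp was the only member called in that interaction, where 14.8% of all probes were called higher and 0.731% lower.

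The heme and hemoglobin scavengers Hpx and Hp were called with smaller differences than Cp under median scaling. Hpx was 1.22, 2.35 and 3.11 on the 3M control arrays and 3.53, 3.78 and 4.01 on the 3M STZ arrays, so the groups did not overlap and the STZ arrays were close to each other. It rose 1.84-fold (log2 fold change 0.88, SE 0.20, limma adjusted p = 0.0013), 0.44 above the median of all probes. After quantile normalization its log2 fold change was 0.53 and the call was lost (adjusted p = 0.053). With brightness as a covariate it was 0.46 (adjusted p = 0.043).

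Hp was dim at 3M. Its levels were 0.364, 0.559 and 0.825 on the 3M control arrays and 0.718, 0.805 and 0.964 on the 3M STZ arrays, against a limit of 0.554 for testing, and 2 of 6 STZ arrays lay above every control. It rose 1.55-fold (log2 fold change 0.63, SE 0.16, limma adjusted p = 0.0034). Its size depended on the processing, with a log2 fold change of 1.22 after quantile normalization, 1.90 after subtracting each array's 5th percentile and 0.26 (adjusted p = 0.15) with arrays scaled to the median of the tested probes. The call was also lost with brightness as a covariate (0.47, adjusted p = 0.060) and with the methods' test at p under 0.01.

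At 1M Hp was 1.09, 1.13 and 1.56 on the control arrays and 1.21, 1.44 and 1.54 on the STZ arrays. Hpx was 2.57, 3.31 and 5.19 on the 1M control arrays and 3.06, 4.31 and 5.18 on the 1M STZ arrays. Both ranges overlapped, with log2 fold changes of 0.23 (SE 0.16) for Hp and 0.28 (SE 0.20) for Hpx, neither of which was called.

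**Figure D1:**
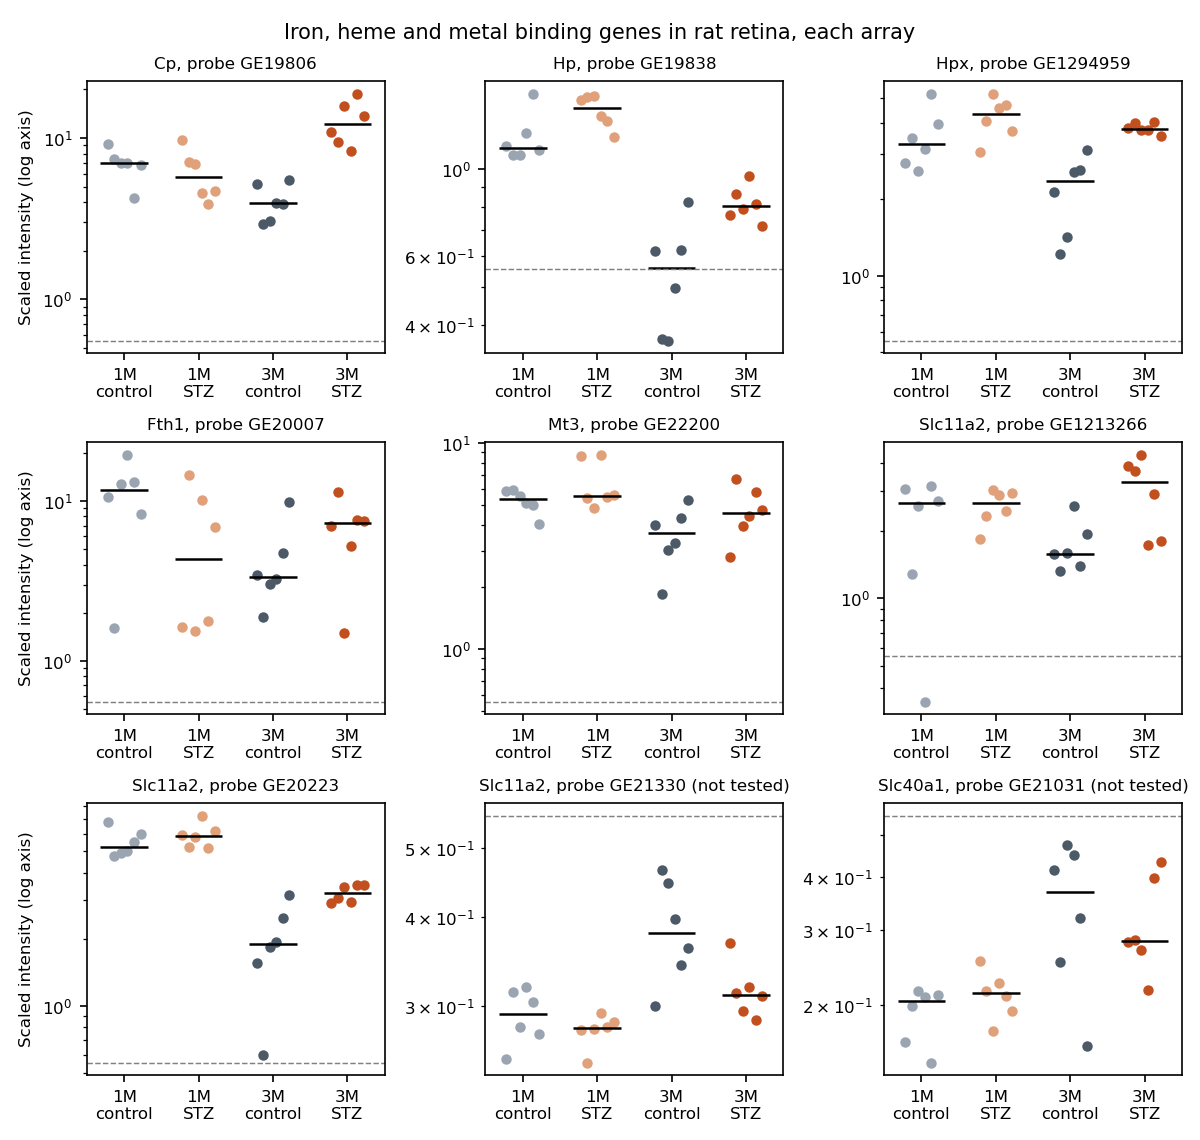
Scaled intensity (log axis, each panel with its own range) of the 9 member probes on the 6 arrays of each group, with points for arrays, black lines for medians and a dashed line for the limit of 0.554. The 3M STZ arrays lie above all 3M control arrays for Cp and Hpx, and Fth1 is spread widely within groups.

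Slc11a2, the iron importer, had 3 probes that did not behave alike. The probe GE20223 was 0.601, 1.90 and 3.16 on the 3M control arrays and 2.91, 3.25 and 3.53 on the 3M STZ arrays. The ranges overlapped, with 3 of 6 STZ arrays above every control, and the lowest control was replicate 2. It rose 1.87-fold (log2 fold change 0.90, SE 0.24, limma adjusted p = 0.0037). The call was lost after quantile normalization (0.65, adjusted p = 0.096) and with brightness as a covariate (0.65, adjusted p = 0.071), and the log2 fold change was 0.60 without replicate 2, over 1.5 times smaller. The methods' test at p under 0.01 did not call this probe either.

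The second probe, GE1213266, was 1.33, 1.58 and 2.57 on the 3M control arrays and 1.73, 3.29 and 4.33 on the 3M STZ arrays. Its log2 fold change was 0.77 (SE 0.37, 95% interval 0.02 to 1.52, limma adjusted p = 0.076), which was not called. On the 1M control arrays it ranged from 0.348 to 3.14, and without the lowest of these, replicate 4, the 3M difference was called with the same log2 fold change and a smaller SE (0.24, limma adjusted p = 0.011). The third probe, GE21330, lay between 0.250 and 0.465 on all arrays, under the limit. Slc40a1, the exporter, lay between 0.147 and 0.474 and was also under the limit on every array.

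Fth1, the iron storage subunit, varied widely within every group. It ran from 1.89 to 9.89 (median 3.34) on the 3M control arrays and from 1.49 to 11.3 (median 7.24) on the 3M STZ arrays, with a log2 fold change of 0.59 (SE 0.58, 95% interval -0.60 to 1.78, limma adjusted p = 0.38). At 1M it ran from 1.60 to 19.4 (median 11.7) on the control arrays and from 1.53 to 14.5 (median 4.33) on the STZ arrays, with a log2 fold change of -1.11 (SE 0.58, 95% interval -2.30 to 0.08). Neither was called, and the 3M value lay between 0.39 (without 3M control replicate 2) and 0.98 (without 3M STZ replicate 3) with 1 array left out. Ferritin genes have processed copies in rodents, and whether this probe tells them apart is not given in the sources used here.

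Mt3, the brain metallothionein, was 1.85, 3.64 and 5.31 on the 3M control arrays and 2.80, 4.57 and 6.65 on the 3M STZ arrays. The ranges overlapped and the log2 fold change was 0.40 (SE 0.22, 95% interval -0.05 to 0.85, limma adjusted p = 0.12), close to the median of all probes, and -0.05 after quantile normalization. At 1M the log2 fold change was 0.27 (SE 0.22).

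**Figure D2:**
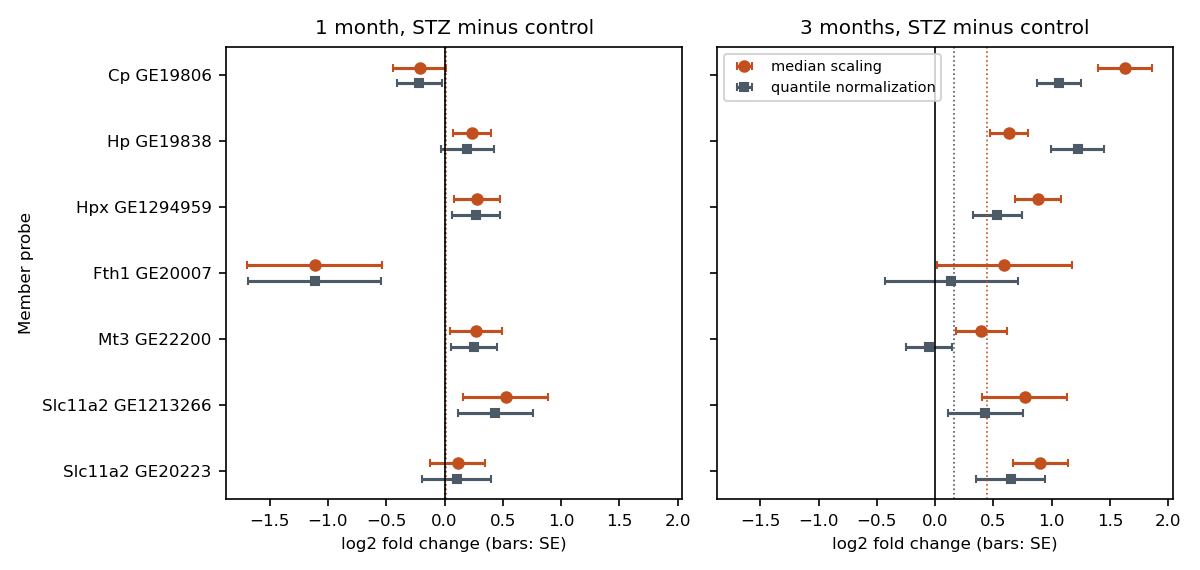
Log2 fold change (STZ minus control) of the 7 tested member probes at 1 month and 3 months, with bars for the SE. Circles are median scaling, squares quantile normalization, and dotted lines the median of all tested probes, which at 3 months is 0.44 and 0.16. At 3 months Cp, Hpx, Fth1, Mt3 and both probes of Slc11a2 shrink and Hp grows under quantile normalization.

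Genes of the same pathways were read from 5 lists, of which 32 genes were tested. At 3M, 18 were called higher and 4 lower, and the log2 fold changes of the 32 had a median of 0.57, beside 50.5% of all tested probes called higher and a median of 0.44. The counts of each list below stand against the same background. At 1M none was called, with 2 at an unadjusted p under 0.05 in limma and none by the methods' test. The lists were chosen with earlier results known, and their counts are descriptions.

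In the heme list 4 of 7 genes were called higher and none lower. Heme oxygenase 1 (Hmox1), which breaks down heme, was 0.508, 0.708 and 0.976 on the 3M control arrays and 0.912, 5.92 and 11.4 on the 3M STZ arrays. It rose by 2.63 on the log2 scale (SE 0.36, limma adjusted p = 4.0e-05), although the lowest STZ array lay inside the control range. Alad, an enzyme of heme synthesis, rose by 1.28 (SE 0.21, adjusted p = 0.00014) with no overlap. After quantile normalization Hmox1 was 2.98 and Alad was 0.67 (limma adjusted p = 0.0038), and these were the 2 of 7 genes still called. The mitochondrial transporter Abcb6 was called at 0.64, with a value of 0.07 after quantile normalization that was not called. Alas2, the first enzyme of heme synthesis in red cells, was -0.34 and was not called.

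In the iron list 3 of 6 genes were called higher and 1 lower. Lipocalin 2 (Lcn2), which binds bacterial iron carriers, rose by 1.46 (SE 0.20, limma adjusted p = 4.0e-05). The iron hormone hepcidin (Hamp, 0.84) and its regulator Hfe (0.77) were called higher, and the endosomal iron reductase Steap3 was called lower (-0.61). Steap3 was 0.961 to 3.29 (median 1.01) on the 3M control and 0.673 to 1.00 on the 3M STZ arrays, so the groups overlapped. At 1M it was dim, at 0.404 to 0.487 on the control and 0.348 to 0.552 on the STZ arrays. Hamp was not called after quantile normalization (0.45, adjusted p = 0.47). Its probe was -0.0045 to 0.042 on the 1M control arrays and -0.0023 to 0.035 on the 1M STZ arrays, under the limit of 0.554. At 3M it was 1.41 to 3.32 on the control arrays and 3.18 to 4.15 on the STZ arrays. Its median over all arrays (0.724) passed the limit through the 3M arrays. Whether the 3M signal is a retinal transcript was not tested.

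In the copper list 4 of 6 genes were called higher and none lower, with a median of 0.66. They were the copper pump Atp7b (0.97), the superoxide dismutases Sod3 (0.78) and Sod1 (0.69), and the copper-binding prion protein gene Prnp (0.64). After quantile normalization the median of the list was -0.06 and 1 gene was called. The zinc transporter Slc30a4 was the only tested gene of the zinc list (0.54, called, and 0.25 after quantile normalization, not called).

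In the acute phase list 6 of 12 genes were called higher and 3 lower, both under median scaling and after quantile normalization. Of all tested probes, 50.5% were higher and 3.55% lower under median scaling, and 24.6% and 6.99% after quantile normalization. The transcription factor Cebpd rose by 2.38 (SE 0.33, limma adjusted p = 4.2e-05), alpha-2-macroglobulin (A2m) by 1.76 (SE 0.23, adjusted p = 2.8e-05) and the protease inhibitor Serpina3n by 1.38 (SE 0.23, adjusted p = 0.00019), each with no overlap between groups. The cytokine gene Il6 was called higher, but its probe was dim at 3M, at 0.229 to 0.474 on the control arrays, all under the limit of 0.554, and 0.528 to 0.865 on the STZ arrays. The plasma protein genes Vtn, Apoa2 and Apoa1 were called lower at -0.63, -0.60 and -0.58. The 3M groups overlapped for each of these genes. Vtn was 0.850 to 3.29 (median 1.18) on the 3M control arrays and 0.642 to 1.12 on the 3M STZ arrays. Apoa1 was dim at 1M, with medians of 0.399 on the control and 0.392 on the STZ arrays.

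**Figure D3:**
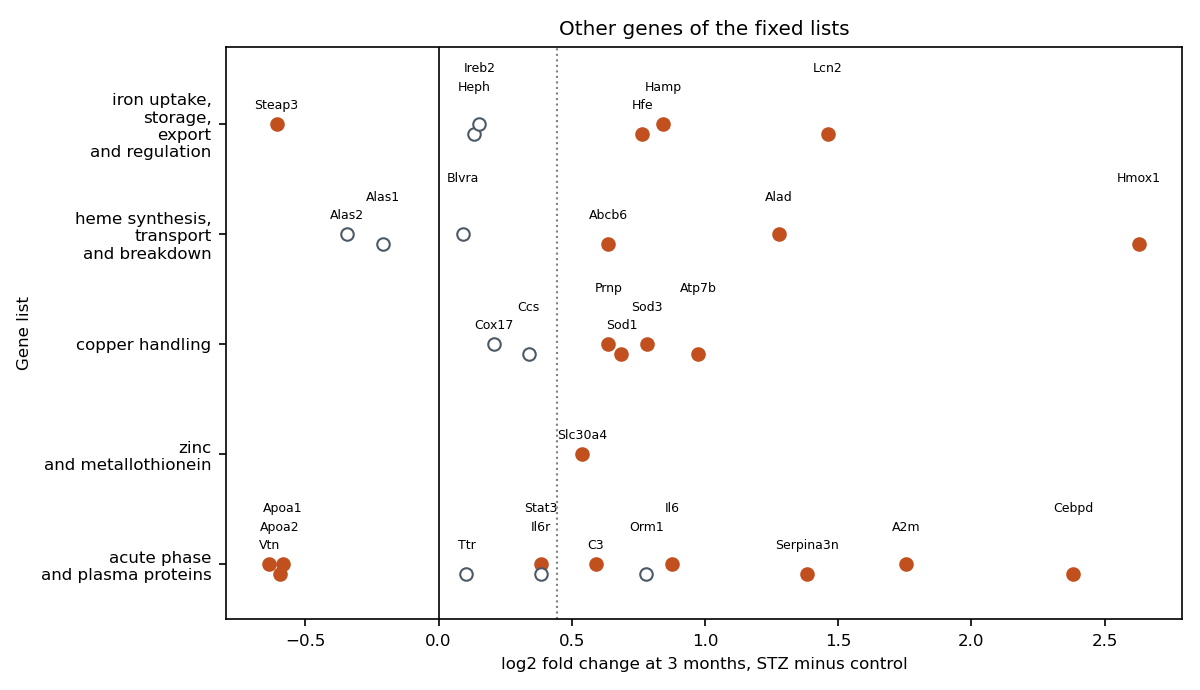
Log2 fold change at 3 months of 31 of the 32 tested genes of the 5 lists, filled where called and open where not. The dotted line is the median of all tested probes (0.44). Hmox1, Cebpd, A2m, Lcn2, Serpina3n and Alad lie farthest to the right.

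Markers of other cells were read against the same 50.5% of probes called higher. Of 5 tested Müller glia markers, 3 were called higher at 3M (Vim 1.53, Gfap 1.29, Slc1a3 0.88). Glul (0.35) and Kcnj10 (-0.01) were not called, and both were -0.43 after quantile normalization. Sums of scaled intensity cover every marker with a probe, tested or not. The Müller glia sum was 48.0 to 135 on the 3M control and 133 to 178 on the 3M STZ arrays. Glul alone was 25.8 to 73.8 and 53.2 to 79.1. Of 8 lens markers, 7 were called higher, with sums of 129.5 to 325 and 407 to 827. After quantile normalization 2 of the Müller glia and 3 of the lens markers were called higher. Microglia markers (2 of 3 higher) summed to 5.27 to 8.65 and 7.53 to 12.0, and oligodendrocyte markers (3 of 4 higher) to 8.05 to 12.3 and 10.3 to 11.7, and 2 of each were higher after quantile normalization. All 3 tested endothelium markers were called higher (1 after quantile normalization) and their sums were 5.39 to 18.4 and 11.9 to 23.4. Of 5 rod markers 2 were called higher, and none higher and 2 lower after quantile normalization, with sums of 179 to 407 and 321 to 503. The part of these cells in the levels of Cp, Hpx, Hp and Slc11a2 was not tested. The sums of erythrocyte markers were 3.52 to 4.53 and 3.35 to 3.97, with the hemoglobin gene Hba-a1 at -0.29 (limma adjusted p = 0.48) and the red cell anion exchanger Slc4a1 called higher at 0.43 (adjusted p = 0.023), and both tested hepatocyte markers were called lower. No retinal pigment epithelium marker was called. Their sums were 3.07 to 13.4 on the 3M control and 2.70 to 97.7 on the 3M STZ arrays. The highest level of Ttr on the 3M STZ arrays was 96.4, against a median of 2.73.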

How the data were processed

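Members and gene lists were chosen with earlier results of these data known. Biotin-labelled retinal RNA was hybridized to CodeLink rat arrays of 33911 probes, 33849 of them for rat. The authors scanned the slides, excluded defective spots, subtracted local background and deposited each probe's linear intensity, together with that intensity divided by a constant for the array. The series table was identical (0 values differed).

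Here intensities were scaled to the median of rat probes, floored at 0.01 and logged. Probes whose median lay above the 35th percentile (0.554), with at least 4 values per group, were tested (22025). Limma 3.58.1 in R 4.3.3 fitted 1 model of 4 groups to 24 arrays, with contrasts at 1 and 3 months and their difference, and was tested on simulated data. The number of arrays limits the precision. Symbols came through RefSeq accessions (4674 of 5469 probes matched). Every member was named, and of each list the called genes (at most the 4 largest) and the extremes. Single values of 1 list gene are not reported here, and counts and medians include it.

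Replicate numbers did not pair arrays (12 same-number correlations from -0.238 to 0.252). The alternatives were the unequal-variance ANOVA of the methods at p under 0.01 and 1.2-fold, without and with Benjamini-Hochberg adjustment, other scalings, backgrounds, filters, floors and models, a replicate block, brightness as a covariate and each array left out. The adjusted version was planned at 0.01. A threshold of 0.05 was added after the counts at 0.01 had been seen, and both are given.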

Additional observations from a re-analysis of the deposited data

Results flagged for a closer look

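The 3M effect of Cp exceeded its 1M effect by 1.84 on the log2 scale, from -0.21 at 1M to 1.63 at 3M, and this difference passed the limma test of the interaction (adjusted p = 0.0077). It lay between 1.72 and 1.99 when any 1 array was left out.

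In 28 groups of 6 arrays checked for a single distant array, 2 were flagged, and chance flags about 1 in 20 groups. For Fth1, replicate 2 of the 1M control arrays was far below the others, at 0.68 on the log2 scale against 3.06 for the next, a gap of 0.66 of the range of the group. Without it the 1M log2 fold change of Fth1 was -1.61 and the 3M minus 1M difference was 2.20 (limma adjusted p = 0.049). That fit kept 1M STZ replicates 1, 3 and 5, at 0.70, 0.62 and 0.82, and 3M STZ replicate 3, at 0.57. These were close to the array left out, so the low level was not confined to that array. For Hp, replicate 5 of the 1M control arrays was above the others, at 0.64 against 0.31, a gap of 0.641 of the range.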

How the results depend on the processing

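The count of member probes called at 3M was 4, and 3 to 5 under most alternatives. It was 2 after quantile normalization, 2 with array brightness as a covariate and 2 with the methods' test at p under 0.01. Of all 22025 probes, 5423, 3917 and 3473 were called higher in these settings, against 11130 under the main settings. Those called lower were 1539, 141 and 249, against 781. With the methods' test after adjustment the member count was 0 at the planned threshold of 0.01 and 1 (Cp) at 0.05, the threshold added after seeing the data. Of all 22025 probes, 0 were called at 0.01, and 1788 were called higher and 133 lower at 0.05. Leaving out 1 array gave 4 to 5 member probes. The count of pathway genes, 22, was 12 with probes above the limit on all 24 arrays, 11 with brightness as a covariate, 12 with the methods' test, and 0 and 8 after its adjustment at 0.01 and 0.05. With the limit on all 24 arrays only 15176 probes were tested, of which 8990 were called higher and 165 lower. Leaving out 1 array gave 17 to 23 pathway genes. In the interaction 1 member was called, 2 after quantile normalization (Cp and Hp) and 1 to 4 with 1 array left out, with 4 (Hp, Hpx and Slc11a2 GE20223 beside Cp) without 3M control replicate 6. Without that array the interaction called 8738 of all 22025 probes higher and 492 lower, against 3253 and 161 with all arrays. At 1M the count was 0 for members and pathway genes under every alternative run, with 0 of 7 members and 2 of 32 pathway genes at an unadjusted p under 0.05 in limma.

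Signs turned only for differences that were not called. For Mt3 the 3M log2 fold change was -0.052 after quantile normalization, and the 3M minus 1M difference was -0.30 after quantile normalization, -0.25 with arrays scaled to the tested probes and -0.051 to 0.27 with 1 array left out. For Slc11a2 GE1213266 that difference was -0.0043 after quantile normalization and -0.13 with arrays scaled to the tested probes, and for GE20223 the 1M value was -0.0032 with brightness as a covariate. Mt3 was called at 3M without 3M control replicate 6 (0.52) or 3M STZ replicate 1 (0.54). In these fits the median of all probes was 0.53 and 0.45, with 13048 and 10673 of 22025 probes called higher. Without 3M control replicate 2 the 3M value of Mt3 was 0.22 and was not called. The cause of these shifts was not tested. With the replicate block, 4 members and 20 pathway genes were called at 3M and 1 member in the interaction, but same-number arrays did not deviate together, with 5 of 12 correlations over 0.1 and 3 arrays closest to their own number. Dim probes such as Hp at 3M were limited by signal over background.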
